A study of Mus musculus with 12 samples.

Results

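The comparison described here is the effect of huntingtin loss on the ribosome-to-total RNA ratio, gene by gene, in mouse embryonic fibroblasts. All 12 libraries of the series, of 12 in all, enter it. They come from 6 cultures, each sampled as total RNA and as ribosome-associated RNA. All cultures were primary fibroblasts from E13.5 embryos that were homozygous for a floxed Htt gene (HTTfl/fl). In 3 cultures a Cre and GFP lentivirus had been added to delete Htt (HTT-deleted), and in the 3 controls a lentivirus for H2B-eGFP. At harvest, 7 days after transduction, 1 part in 15 of each suspension went to total RNA and the rest to ribosome purification. Per the labels a replicate is a separate primary culture or a separate passage, and no selection of transduced cells is described. The Cre and control vectors differ in more than Cre, since only the control vector encodes a histone H2B fusion.

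Huntingtin is a large scaffold protein that links vesicles to microtubule motors, and it has been tied to transcription, autophagy and RNA handling. How strongly an mRNA is loaded with ribosomes depends on initiation at its start codon, and whole classes of transcripts can shift together. Messages for ribosomal proteins and translation factors, many of which begin with a terminal oligopyrimidine tract, follow growth signalling, while Atf4 and related stress genes are governed by upstream open reading frames. Noncoding and nuclear-retained RNAs are expected to be poor in a ribosome pellet. A ribosome pellet holds RNA on and with ribosomes, so its content is not itself a rate of protein synthesis.

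In these data no gene passed the test for a change of its ribosome-to-total ratio on loss of huntingtin. The test was edgeR's quasi-likelihood test of the interaction between fraction and condition, with the culture as a block. The threshold for a call was a Benjamini-Hochberg adjusted p of 0.05. It called 0 of 15574 genes (0%), and the lowest adjusted p was 0.859. At an unadjusted p under 0.05 stood 150 genes (0.963%). Of these 52 had a higher ratio in HTT-deleted cells (0.334%) and 98 a lower one (0.629%). Without any change a share near 0.05 of the genes would be expected there, so these genes are no excess. DESeq2 called 0 genes with 74 at that unadjusted level, and limma voom called 0 with 161.

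The ratio is given below as a log2 ratio, the log2 CPM (counts scaled to library size) of the ribosome-associated library minus that of the total library of the same culture. A value of 0 marks a gene at the same share of both libraries, and a change of 1 is a doubling of the ratio in HTT-deleted relative to control cultures. Across all genes tested the median change was 0.02, with an SD over genes of 0.43. The scaling sets this median near 0. A shift of the ratio shared by most genes could therefore not appear in it or in the test. For the 9709 genes with a mean of at least 10 CPM the median standard error was 0.19 and the 95% confidence interval typically ran 0.43 to either side of the estimate (median over genes). The interval lay within a 2-fold change in either direction for 10205 genes (65.5%) and within a 1.5-fold change for 5005 genes (32.1%). For the other genes the interval reached past a 2-fold change.

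The culture-to-culture spread was not even. The ratios of 5 cultures resembled each other, with Pearson correlations across 13452 genes of 0.802 to 0.831 between control cultures, of 0.852 between HTT-deleted replicates 2 and 3, and of 0.826 to 0.857 between the controls and HTT-deleted replicates 2 and 3. The ratios of HTT-deleted replicate 1 correlated with those of the other cultures at only 0.0966 to 0.359. These correlations run across genes within cultures and the points share library depth and gene length. The first principal component of the ratios, with 73.1% of the variance, placed HTT-deleted replicate 1 at 75.8 and the other 5 cultures at -31.1 to -5.67.

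**Figure D1:**
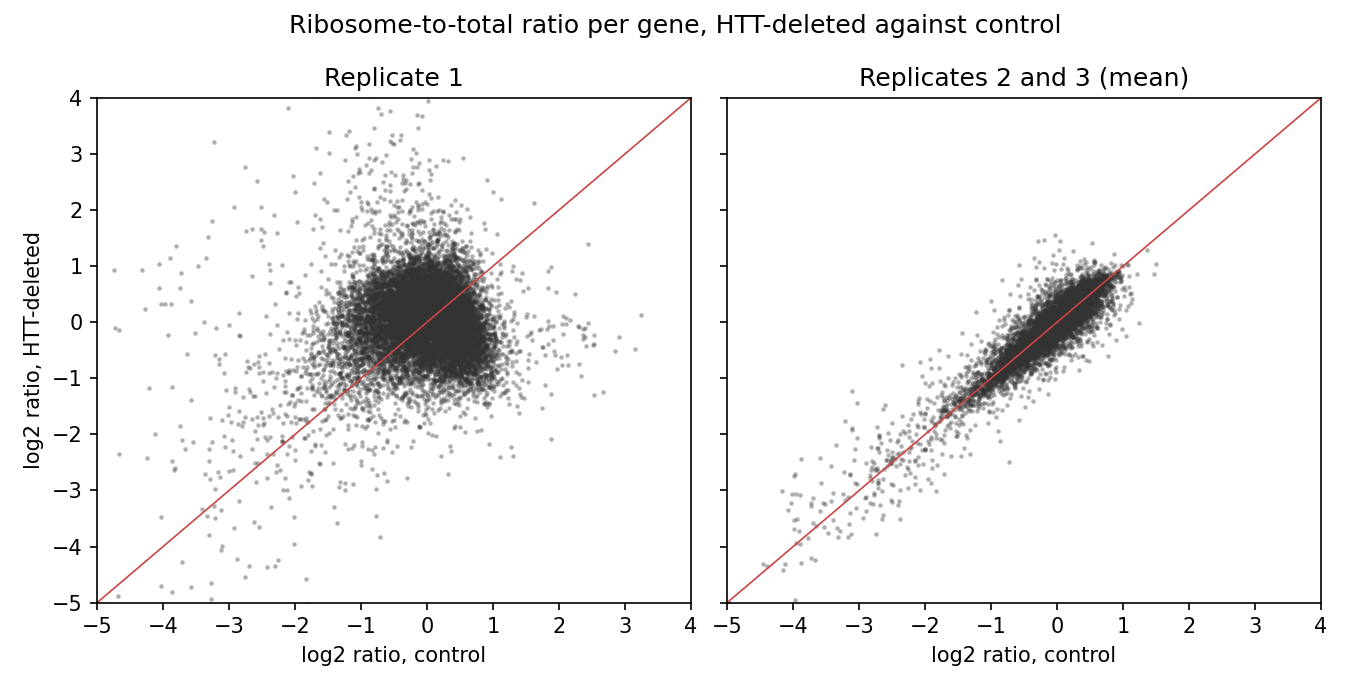
Log2 ribosome-to-total ratio of each gene, control culture on the horizontal axis and HTT-deleted culture on the vertical axis, for the 13524 genes with a mean of at least 1 CPM in control total RNA; each point is a gene and the line marks equal ratios. The left panel shows the replicate 1 cultures (33 genes lie outside the axes), where the cloud does not follow the line, and the right panel the mean of replicates 2 and 3 (2 genes outside), where it does.

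The culture that stood apart differed by transcript length. Over 12494 protein-coding genes, the deviation of its ratio from the mean of the other 5 cultures had a Spearman correlation with transcript length of 0.650. In the other 5 cultures that correlation was between -0.637 (control replicate 1) and -0.0682 (control replicate 3). HTT-deleted replicate 1 is part of the mean that each of them is set against, which by itself tilts them the opposite way. In HTT-deleted replicate 1 the 10% of genes with the shortest transcripts had a median deviation of -0.89 and the 10% with the longest 0.72. Control replicate 1 deviated the other way, at 0.38 for the shortest and -0.41 for the longest. The replicate 1 pair therefore holds both ends of this spread. Its change (HTT-deleted minus control) was -1.06 at the median of the shortest class and 0.94 at that of the longest. The same medians were 0.12 and -0.07 in the replicate 2 pair and 0.09 and -0.08 in the replicate 3 pair, of opposite sign and smaller. By library, the trend lay in total RNA of HTT-deleted replicate 1, whose deviation from the other 5 total libraries correlated with length at -0.603 (0.216 to 0.412 in the others). Here too each library is part of the reference mean of the others in its fraction. In ribosome-associated RNA that culture was at 0.0186, and the library furthest out was control replicate 1 at -0.490, against 0.0186 to 0.178 in the others. Values from a fit of replicates 2 and 3 alone, 8 libraries, are therefore given beside those of all libraries.

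**Figure D2:**
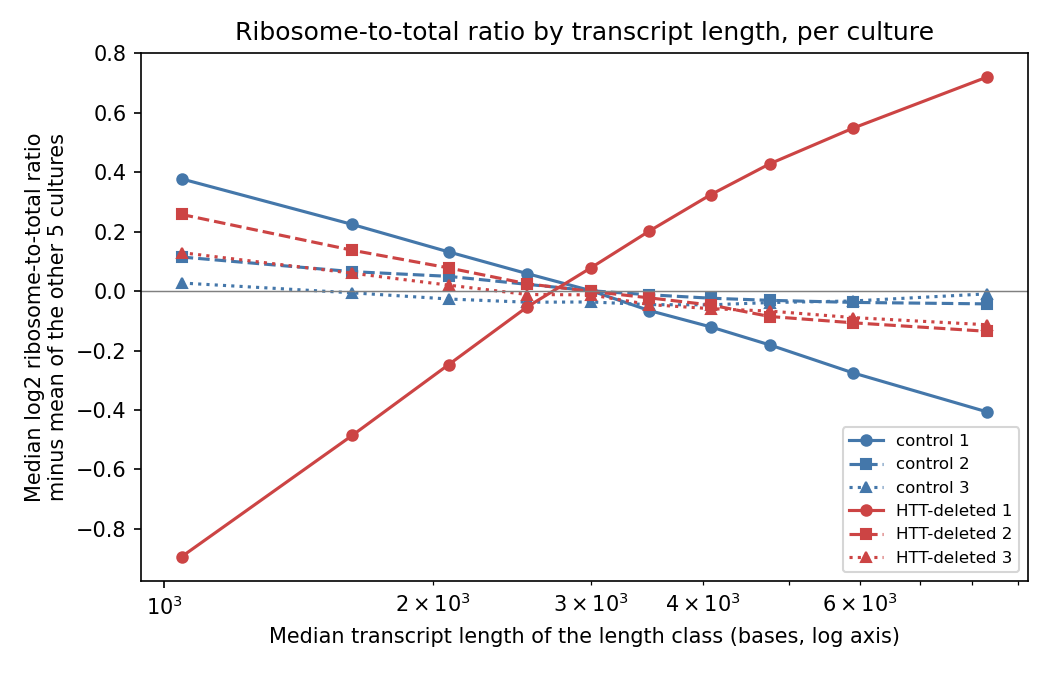
Median deviation of the log2 ribosome-to-total ratio from the mean of the other 5 cultures (vertical axis) in 10 classes of transcript length (horizontal axis, bases, log scale), 1 line per culture. The line of HTT-deleted replicate 1 climbs from -0.89 to 0.72, and that of control replicate 1 descends from 0.38 to -0.41, while the other 4 stay between -0.14 and 0.26. HTT-deleted replicate 1 is part of the mean that each other line is set against.

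Leaving the replicate 1 cultures out narrowed the errors and left the count of called genes at 0. This choice was made with the data known, and the narrower errors rest on fewer cultures, only replicates 2 and 3 of each condition. In the fit of replicates 2 and 3 edgeR called 0 of 15787 genes, with a lowest adjusted p of 0.247. At an unadjusted p under 0.05 were 833 (5.28%), 384 higher (2.43%) and 449 lower (2.84%). That share is near the 0.05 expected without any change. The median standard error of genes at 10 CPM or more was 0.10. The median change over all genes was -0.01, again set near 0 by the scaling. Over 12494 protein-coding genes the change in this fit had a Spearman correlation with transcript length of -0.337. Its median was 0.09 in the 10% of genes with the shortest transcripts and -0.08 in the 10% with the longest. The interval of the change lay within 2-fold for 12076 genes (76.5%) and within 1.5-fold for 10116 (64.1%). When only HTT-deleted replicate 1 was left out, these were 12080 (75.6%) and 10090 (63.1%) of 15986 genes, again with 0 calls and 233 genes at an unadjusted p under 0.05.

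The ratio itself, as opposed to its change, was measurable in both conditions. With all libraries 2879 genes (18.5%) differed between ribosome-associated and total RNA in control cultures and 1774 (11.4%) in HTT-deleted cultures. With replicates 2 and 3 these counts were 7762 (49.2%) and 8079 (51.2%). Of these, 6562 genes were called in both conditions, 84.5% of the control list and 81.2% of the HTT-deleted list, and all 6562 had the same sign in both. Higher on ribosomes in both were 3166 genes, and lower in both 3396. Both counts come from 1 fit that shares an estimate of the spread.

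Htt itself was lower in both fractions of the HTT-deleted cultures, and its ratio did not pass the test. The gene (ENSMUSG00000029104, GRCm38 chromosome 5, 34761740 to 34912534, plus strand) had 58.9, 45.8 and 64.6 CPM in control total RNA and 15.5, 10.6 and 10.7 CPM in HTT-deleted total RNA. In ribosome-associated RNA it had 22.6, 20.1 and 32.0 CPM in controls and 12.8, 5.04 and 3.98 CPM in HTT-deleted cultures. In each fraction all 3 HTT-deleted libraries lay below all 3 controls. The authors' deposited table gives log2 fold changes of -2.18 in total and -1.93 in translated RNA. Htt mRNA sat low on ribosomes in every culture, with log2 ratios of -1.38, -1.18 and -1.01 in controls and -0.28, -1.06 and -1.41 in HTT-deleted cultures. The ratios overlap, and the change was 0.29 with a standard error of 0.29 (edgeR adjusted p = 0.859). It was -0.17 (standard error 0.16) in replicates 2 and 3, so its sign rests on HTT-deleted replicate 1.

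The histone genes Hist1h2bf and Hist1h2bm were counted mainly in control libraries, and the control virus carries an H2B-eGFP fusion; the source of these reads was not tested. Hist1h2bf had 319, 378 and 28 counts in control total RNA and 270, 685 and 65 in control ribosome-associated RNA. In HTT-deleted cultures it had 0, 1 and 2 counts in total and 0, 7 and 0 in ribosome-associated RNA. Hist1h2bm had 19 to 180 counts in control total and 20 to 335 in control ribosome-associated RNA, and at most 2 in any HTT-deleted library. With so few counts in HTT-deleted cultures, the change of ratio was -0.12 (standard error 2.23) for Hist1h2bf and -1.78 (standard error 1.64) for Hist1h2bm, and it says nothing at this depth.

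Since no gene was called, the genes named next are those of smallest unadjusted p in each direction that had at least 1 CPM in a group and the same sign of change in all 3 pairs of same-numbered cultures. All are values that did not pass. Over all genes tested, 1545 were above 0 in all pairs (9.92%) and 1168 below (7.5%). Ratios of the control and HTT-deleted cultures did not overlap for 613 genes higher in HTT-deleted cells (3.94%) and 456 lower (2.93%). The 20 genes below were picked from those by p and their gaps between the groups are therefore no support for a change.

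**Figure D3:**
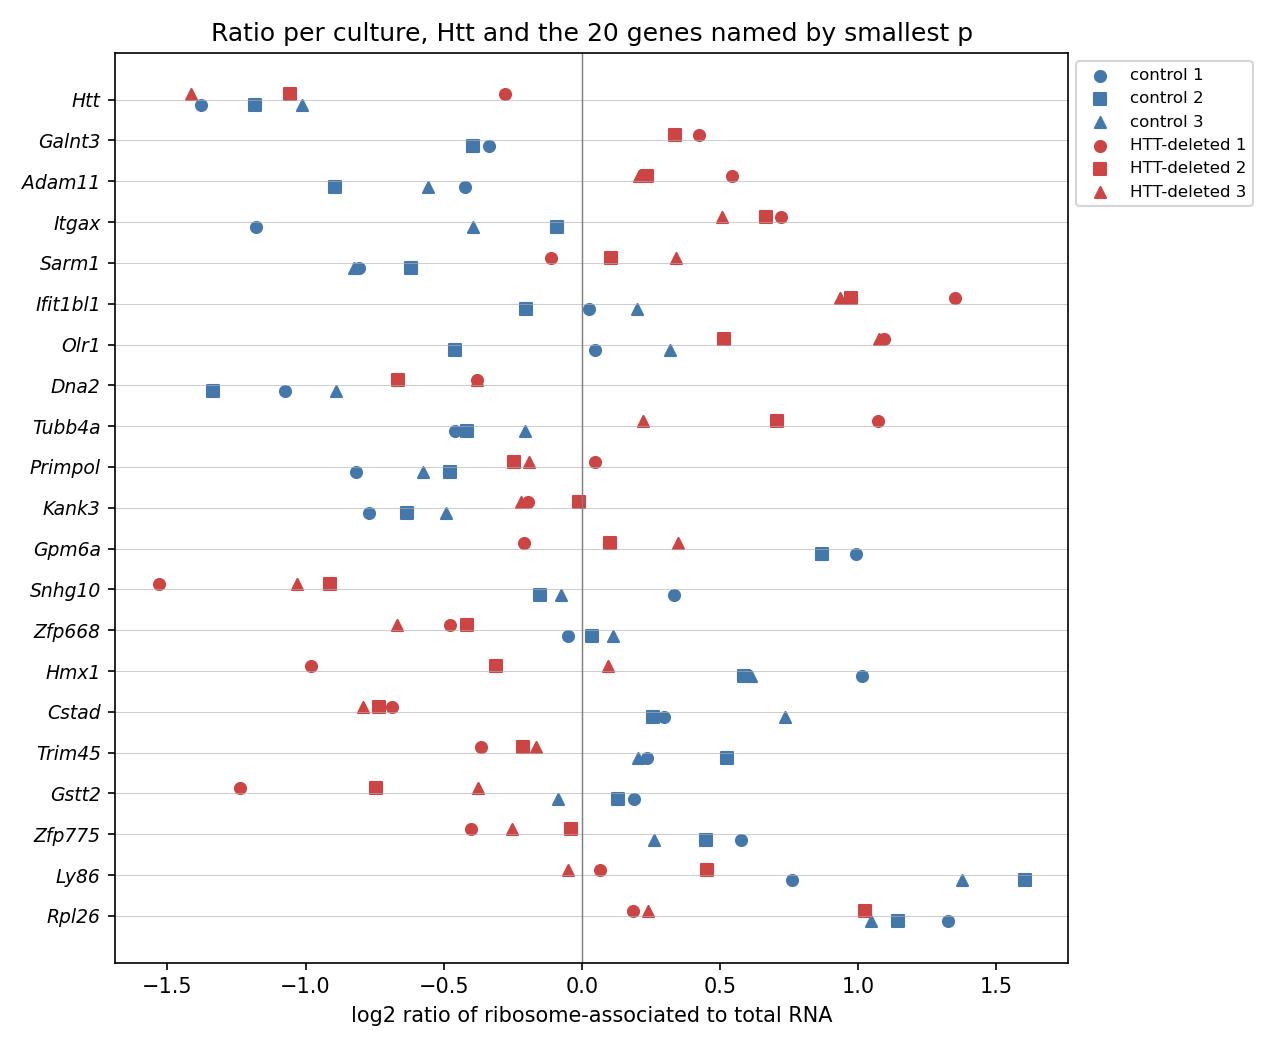
Log2 ratio of ribosome-associated to total RNA (horizontal axis) in each of the 6 cultures for Htt and for the 10 genes with a higher and the 10 with a lower ratio in HTT-deleted cultures at smallest unadjusted p; blue marks control and red HTT-deleted cultures, and the marker shape the replicate number. The groups are apart for the 20 genes, which the selection favours, and overlap for Htt.

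On the higher side, Galnt3 (ENSMUSG00000026994, GRCm38 chromosome 2, 66082766 to 66124994, minus strand), a Golgi enzyme that starts O-linked glycosylation, had the smallest p. Its log2 ratios were -0.34, -0.39 and -0.40 in controls and 0.43, 0.34 and 0.34 in HTT-deleted cultures. The change was 0.76 (standard error 0.21, 95% interval 0.28 to 1.24, edgeR adjusted p = 0.859), and 0.74 (standard error 0.29) in replicates 2 and 3. It combined a lower level in HTT-deleted total RNA (log2 fold change -0.40, standard error 0.42) with a higher one in ribosome-associated RNA (0.37, standard error 0.41). Its level was low, at 1.79 to 5.90 CPM over the 12 libraries.

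Dna2 (ENSMUSG00000036875, GRCm38 chromosome 10, 62947026 to 62974185, plus strand), a nuclease and helicase that processes replication intermediates, had ratios of -1.07, -1.34 and -0.89 in controls and -0.38, -0.67 and -0.38 in HTT-deleted cultures, a change of 0.64 (standard error 0.23) and of 0.57 (standard error 0.28) in replicates 2 and 3. In total RNA it stood at 5.17 to 7.01 CPM in controls and 5.05 to 7.96 CPM in HTT-deleted cultures, and in ribosome-associated RNA at 2.20 to 3.29 and 3.68 to 6.10 CPM. Its groups thus overlapped in total RNA and not in ribosome-associated RNA. The authors' deposited table lists Dna2 at a log2 fold change of 0.71 in translated RNA (false discovery rate 0.000737) and of 0.09 in total RNA (0.834). For Primpol, a primase that restarts stalled forks, the change was 0.49 (standard error 0.18), and 0.31 (standard error 0.18) in replicates 2 and 3. Neither Dna2 nor Primpol passed the interaction test, at an edgeR adjusted p of 0.859 for each. Both were named by their p, not from a list. The fixed list of 45 cell cycle and DNA replication genes had a median change of 0.02, the same as all genes, with 24 above 0; its member of smallest p, the primase subunit Prim1, was at 0.35 (standard error 0.18), and at 0.22 (standard error 0.17) in replicates 2 and 3.

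The other higher values came from genes of low level and other functions. Adam11, a membrane protein of the disintegrin family without protease activity, was at 0.97 (standard error 0.30). Sarm1, an NAD-cleaving enzyme of axon degeneration, was at 0.92 (standard error 0.31), and the tubulin Tubb4a at 1.09 (standard error 0.39). Kank3, an adaptor of cell adhesions, was at 0.49 (standard error 0.19). The highest CPM of Adam11, Sarm1 and Tubb4a in any library was 3.10. From replicates 2 and 3 alone these values were 0.95 for Adam11, 0.99 for Sarm1, 0.83 for Tubb4a and 0.44 for Kank3. All had an edgeR adjusted p of 0.859 with all libraries.

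Itgax, an integrin of dendritic cells and macrophages, had a change of 1.31 (standard error 0.43) at 0.367 to 1.70 CPM. Ifit1bl1, a member of the interferon-induced Ifit family whose reads may be split with its paralogs, had 1.17 (standard error 0.39). Olr1, a scavenger receptor for oxidised lipoprotein, had 1.008 (standard error 0.35). Olr1 was lower in both fractions of HTT-deleted cultures, at 0.479 to 1.05 against 1.48 to 5.39 CPM in total RNA, and the authors' deposited table gives -2.17 in total and -1.11 in translated RNA. Without replicate 1 of either condition the changes were 0.95 (standard error 0.60) for Itgax, 0.98 (standard error 0.64) for Ifit1bl1 and 0.96 (standard error 0.46) for Olr1. On the lower side, Ly86, a myeloid partner of a Toll-like receptor homologue, had a change of -1.10 (standard error 0.37), and of -1.40 (standard error 0.55) in replicates 2 and 3. Ly86 stood at 0.198 to 1.57 CPM in control total and at 1.36 to 5.08 CPM in HTT-deleted total RNA.

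Markers of macrophages were present in every library. All 18 listed markers were detected, none at 0 in all libraries. Their summed level is given in CPM without TMM scaling. It was 793 to 3317 CPM in control total and 1878 to 7663 CPM in HTT-deleted total RNA. In the ribosome-associated libraries it was 1128 to 4747 and 2748 to 8547 CPM. These ranges overlap, and within each same-numbered pair the HTT-deleted library was higher. The mean log2 CPM of the markers was 6.40 against 7.34, 4.41 against 5.53 and 5.461 against 5.998 in total RNA of pairs 1, 2 and 3 (control, then HTT-deleted). In ribosome-associated RNA it was 6.79 against 7.40, 4.88 against 6.03 and 5.87 against 6.30. In bulk RNA more cells of a type and more RNA per cell cannot be told apart. Their ratio had a median change of -0.22 with 5 of 18 above 0, and -0.45, 0.05 and -0.15 in the 3 pairs. In replicates 2 and 3 the median was -0.06 with 4 of 18 above 0. The part of these cells in the values of Itgax, Ly86 and Olr1 was not tested. Fibroblast markers were high throughout. Also without TMM scaling, 14 markers summed to 24790 to 41590 CPM in total and 26590 to 37440 CPM in ribosome-associated RNA.

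On the lower side, Zfp668 (ENSMUSG00000049728, GRCm38 chromosome 7, 127863047 to 127876828, minus strand), a zinc-finger protein of the DNA damage response, had a lower ratio in each pair. It had 11.4, 10.5 and 12.03 CPM in control total RNA and 14.1, 12.8 and 14.0 CPM in HTT-deleted total RNA. In ribosome-associated RNA it had 10.98, 10.8 and 13.01 CPM in controls and 10.1, 9.55 and 8.80 CPM in HTT-deleted cultures. The groups did not overlap in either fraction, and lay in opposite order. Its ratios were -0.05, 0.04 and 0.11 in controls and -0.48, -0.42 and -0.67 in HTT-deleted cultures. The change was -0.56 (standard error 0.16, 95% interval -0.94 to -0.18), and -0.64 (standard error 0.17) in replicates 2 and 3. The edgeR adjusted p was 0.859 and 0.721.

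Gpm6a, a neuronal membrane glycoprotein, had the smallest p of the 10 genes picked on the lower side although its level differed widely between cultures. In control total RNA it stood at 1.02, 9.95 and 0.480 CPM and in HTT-deleted total RNA at 1.60, 14.5 and 0.213 CPM. Both replicate 2 cultures thus lay far above the others. In replicate 3 the control had 13 counts in total and 29 in ribosome-associated RNA, and the HTT-deleted culture 4 and 8. Its ratios were 0.99, 0.87 and 0.87 in controls and -0.21, 0.10 and 0.35 in HTT-deleted cultures, a change of -0.91 (standard error 0.25) and of -0.77 (standard error 0.25) in replicates 2 and 3. The E3 ligase gene Trim45 was at -0.57 (standard error 0.18) and the zinc-finger gene Zfp775 at -0.67 (standard error 0.21). Snhg10, a host of small nucleolar RNA, was at -1.27 (standard error 0.36), with 1.11 to 1.44 CPM in control total RNA against 1.59 to 2.82 CPM in HTT-deleted total RNA. The homeobox gene Hmx1 was at -1.24 (standard error 0.37), Cstad at -1.29 (standard error 0.39) and the glutathione transferase gene Gstt2 at -0.88 (standard error 0.28). The fit of replicates 2 and 3 put the changes at -0.55 for Trim45, -0.51 for Zfp775, -0.92 for Snhg10, -0.80 for Hmx1, -1.39 for Cstad and -0.54 for Gstt2, so that those of Hmx1 and Gstt2 were smaller by over 1.5 times.

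A like rule was applied to the fit of replicates 2 and 3, after seeing the data, with the same sign asked in pairs 2 and 3 and 3 genes per direction. One of the lower genes by that rule was Zfp668. Zfp593, a zinc-finger protein of ribosome assembly, had ratios of 0.15 and 0.18 in controls 2 and 3 and of 1.16 and 0.70 in HTT-deleted 2 and 3. That change was 0.72 (standard error 0.17, edgeR adjusted p = 0.480). In the replicate 1 pair the order was the opposite, 0.80 in the control and -0.51 in the HTT-deleted culture, and with all libraries the change was 0.06. Lage3, a subunit of a tRNA-modifying complex, was at 0.45 (standard error 0.12) in replicates 2 and 3 and at 0.03 with all. Ccdc138, a coiled-coil gene, was at 1.42 (standard error 0.36) and 0.60. Kmt2e, a chromatin regulator with a SET domain, was at -0.34 (standard error 0.09) and 0.06, and Gatad2b, a subunit of the NuRD complex, at -0.34 (standard error 0.09) and -0.08. None passed, with edgeR adjusted p of 0.480 to 0.721 in that fit.

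The gene lists show what each pair contributed. Of the 29 lists and 7 marker lists, 0 members passed the test in any. Medians over list members with all libraries, and from each pair, are given beside the median of all 15574 genes, which was 0.08, 0.00 and 0.01 in pairs 1, 2 and 3. Of all 15574 genes 8281 were above 0 with all libraries (53.2%), and 7657 of 15787 were in replicates 2 and 3. Of the 29 gene lists, leaving out the marker lists, the 5 with the lowest medians had short transcripts, with a median length of 777 to 1561 bases against 2957 for all genes, and in each the pair 1 median was below -0.86 and the medians of pairs 2 and 3 were above -0.04.

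**Figure D4:**
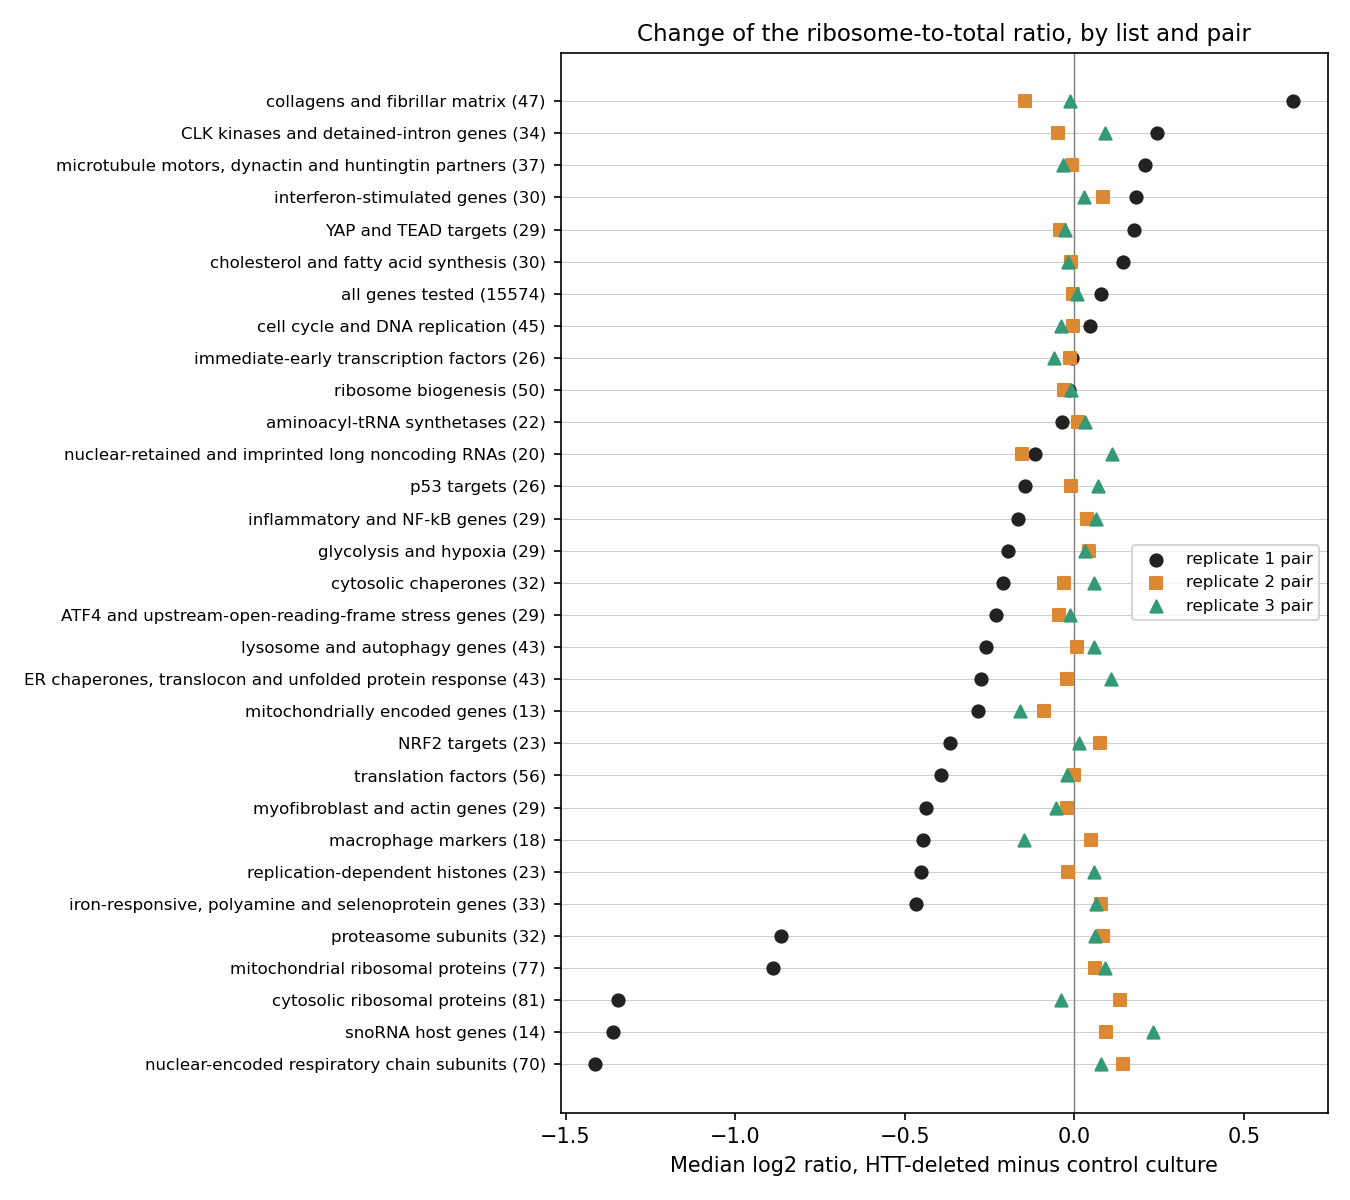
Median change of the log2 ribosome-to-total ratio (HTT-deleted minus control culture, horizontal axis) over the members of each gene list, the macrophage markers and all genes tested, with the number of members tested in brackets; each marker is 1 pair of same-numbered cultures. Pair 1 ranges from -1.41 to 0.64, and pairs 2 and 3 stay between -0.16 and 0.23.

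Cytosolic ribosomal proteins, 81 genes, had a median change of -0.42 with 1 of 81 above 0. The pair medians were -1.35, 0.14 and -0.04, and in replicates 2 and 3 the median was 0.05 with 61 of 81 above 0. The median ratio of the list was 0.79 in control and 0.39 in HTT-deleted cultures. By culture it was 0.997, 0.72 and 0.68 in controls and -0.34, 0.87 and 0.62 in HTT-deleted cultures, so it was below 0 only in HTT-deleted replicate 1. Rpl27, a protein of the large subunit, had ratios of 0.96, 0.67 and 0.95 in controls and -0.21, 0.70 and 0.55 in HTT-deleted cultures. Its total RNA was at 214, 216 and 181 CPM in controls and at 412, 226 and 216 CPM in HTT-deleted cultures, so the first HTT-deleted library lay far above the other 5. Rpl26, the member of smallest p, was at -0.69 (standard error 0.24), and at -0.47 (standard error 0.25) in replicates 2 and 3. The single member above 0 was Rpl24 at 1.25 (standard error 0.63), which had under 1 CPM in all libraries. Ribosomal protein genes have many near-identical processed copies, so the counts of these genes, Rpl24 and Rpl26 above all, are uncertain.

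The same course was seen in other lists of small proteins. The 70 nuclear-encoded subunits of the respiratory chain had a median of -0.36 with 5 of 70 above 0, and pair medians of -1.41, 0.15 and 0.08. In replicates 2 and 3 their median was 0.12 with 59 of 70 above 0 and 12 higher at an unadjusted p under 0.05. Over all genes in that fit, 7657 of 15787 were above 0 and 2.43% were higher at that level. The list has short transcripts (median 891.5 bases), and the shortest 10% of protein-coding genes had a median change of 0.09 in that fit. The list values of that fit are not corrected for length. Ndufb10, of complex I, had ratios of 0.73, 0.44 and 0.41 in controls and -1.11, 0.49 and 0.36 in HTT-deleted cultures, a change of -0.61 (standard error 0.40) and of -0.01 in replicates 2 and 3. Atp5o, of the ATP synthase, was at -0.72 (standard error 0.39) and at -0.13 without replicate 1. Mitochondrial ribosomal proteins, 77 genes, had a median of -0.24 with 3 above 0, and 0.08 with 55 above 0 in replicates 2 and 3. Of these Mrpl45 was at -0.37 (standard error 0.20), and at -0.13 in replicates 2 and 3. The 32 proteasome subunits had -0.24 with 3 above 0, and 0.05 with 25 above 0 in replicates 2 and 3, with Psmd3 at -0.27 (standard error 0.16) and -0.07. The cause of the sign change between the fits was not tested beyond the length values given above.

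The 13 mitochondrially encoded genes tested had a median of -0.13 with 6 of 13 above 0, pair medians of -0.28, -0.09 and -0.16, and a median of -0.11 with 2 of 13 above 0 in replicates 2 and 3. The cytochrome oxidase subunit mt-Co3 had ratios of 1.31, 0.20 and 0.32 in controls and -0.26, -0.21 and -0.01 in HTT-deleted cultures, a change of -0.80 (standard error 0.31) that was -0.38 (standard error 0.22) in replicates 2 and 3. It stood at 5.13 to 21.5 CPM, and the handling of reads that also match nuclear copies was not stated in the labels.

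Translation factors, 56 genes that include several terminal oligopyrimidine messages, had a median change of -0.12 with 18 above 0, and of -0.02 with 26 above 0 in replicates 2 and 3. Eif3d, a cap-binding subunit of initiation factor eIF3, had ratios of 0.37, 0.29 and 0.23 in controls and -0.19, 0.21 and 0.12 in HTT-deleted cultures, a change of -0.25 (standard error 0.15) and of -0.10 (standard error 0.08) in replicates 2 and 3. The re-initiation factor Mcts1 was at -0.39 (standard error 0.21) and Tpt1 at -0.36 (standard error 0.22), against -0.16 and -0.05 in replicates 2 and 3. Ribosome biogenesis genes (50) had a median of -0.02 and aminoacyl-tRNA synthetases (22) of -0.01. Of the biogenesis list Gar1 was at -0.49 (standard error 0.24) and Nop58, both proteins of small nucleolar ribonucleoproteins, at -0.23 (standard error 0.15). In replicates 2 and 3 they were at -0.15 and -0.11, and the list medians at -0.02 and 0.01.

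Atf4, whose translation rises under the integrated stress response, did not differ in ratio between conditions beyond the spread of the cultures. Its ratios were 0.55, 0.41 and 0.23 in controls and -0.31, 0.45 and 0.26 in HTT-deleted cultures, which overlap. The change was -0.27 (standard error 0.21, 95% interval -0.76 to 0.23), and 0.03 (standard error 0.08) in replicates 2 and 3. The 29 tested genes of the Atf4 and upstream-open-reading-frame list had a median of -0.07 with 12 above 0, and of 0.00 with 14 above 0 in replicates 2 and 3. Mthfd2, a mitochondrial folate enzyme and Atf4 target, was the member of smallest p. It had ratios of 0.47, 0.35 and 0.35 in controls and -0.01, 0.18 and 0.02 in HTT-deleted cultures, a change of -0.33 (standard error 0.13) that was -0.25 (standard error 0.10) in replicates 2 and 3. Chac1, a glutathione-degrading enzyme and Atf4 target, was at -0.33 (standard error 0.16) and at -0.28 (standard error 0.17). Both had an edgeR adjusted p of 0.859 with all libraries. Among ER chaperones, translocon and unfolded protein response genes (43) the median was -0.09, with the oxidase Ero1l at 0.24 (standard error 0.14) and the chaperone Calr at -0.29 (standard error 0.21). In replicates 2 and 3 the median was 0.02, Ero1l was at 0.14 and Calr at -0.08. Cytosolic chaperones (32) had -0.09, with Hsp90ab1 at -0.24 (standard error 0.17), and 0.01 with Hsp90ab1 at -0.11 in replicates 2 and 3.

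The matrix genes went the other way with all libraries. The 47 collagens and fibrillar matrix genes, which have long transcripts, had a median change of 0.18 with 40 above 0 and pair medians of 0.64, -0.15 and -0.01. In replicates 2 and 3 the median was -0.07 with 6 of 47 above 0. In that fit 5 were lower at an unadjusted p under 0.05, a level at which 2.84% of all genes were lower. The 10% of protein-coding genes with the longest transcripts had a median change of -0.08 there. Col11a1 had ratios of -0.81, -0.19 and -0.47 in controls and 0.73, -0.39 and -0.40 in HTT-deleted cultures, a change of 0.46 (standard error 0.33) and of -0.07 (standard error 0.07) in replicates 2 and 3. Fibrillin 1, Fbn1, was at 0.54 (standard error 0.43) and -0.13 (standard error 0.07). Its total RNA in HTT-deleted replicate 1 was 382 CPM, against at least 1045 CPM in each of the other total libraries.

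Genes of the contractile cytoskeleton were among the lists whose median was below 0 in each pair. The 29 myofibroblast and actin genes had a median of -0.14 and pair medians of -0.44, -0.02 and -0.06, and in replicates 2 and 3 a median of -0.05 with 8 of 29 above 0. Des, the muscle intermediate filament desmin, had ratios of 0.84, 0.75 and 0.55 in controls and -0.14, -0.02 and 0.67 in HTT-deleted cultures, a change of -0.64 (standard error 0.25) and of -0.55 (standard error 0.26) in replicates 2 and 3. The actin nucleator Lmod1 had 0.26, 0.41 and 0.18 in controls and 0.01, 0.04 and 0.00 in HTT-deleted cultures, a change of -0.27 (standard error 0.13) and of -0.28 (standard error 0.10). Tpm2 was at -0.59 (standard error 0.32) and -0.11. The 29 YAP and TEAD targets had a median of 0.05, and of -0.05 in replicates 2 and 3. Of these the growth factor gene Ccn2 was at -0.19 (standard error 0.16) and -0.05.

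The lists of nuclear-retained noncoding RNAs and of detained-intron genes were poor on ribosomes at the median in both conditions, though not every member was. The 20 nuclear-retained and imprinted long noncoding RNAs had a median ratio of -0.97 in control and -1.10 in HTT-deleted cultures and a median change of -0.01. Rian, an imprinted noncoding RNA, had ratios of -0.75, -0.67 and -0.72 in controls and 0.52, -0.63 and -0.58 in HTT-deleted cultures, the first HTT-deleted culture lying apart, a change of 0.48 (standard error 0.29) and of 0.09 (standard error 0.08) in replicates 2 and 3. The 34 Clk kinases and detained-intron genes, whose unspliced forms stay in the nucleus, had median ratios of -0.71 and -0.72 and a median change of 0.09 with 27 of 34 above 0. Of these the splicing kinase Clk4 was even between replicates, at -1.55, -1.52 and -1.54 in controls and -1.18, -1.31 and -1.29 in HTT-deleted cultures. Its change was 0.28 (standard error 0.13) and 0.22 (standard error 0.10) in replicates 2 and 3, with an edgeR adjusted p of 0.859 and 0.941. In those replicates 20 of the 34 were above 0 and the median was 0.03. The splicing factor Srrm2 was at 0.48 (standard error 0.36) and -0.16 (standard error 0.07).

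Hosts of small nucleolar RNAs formed a list of their own, which shares Gas5 with the noncoding list. The 14 tested had a median ratio of 0.15 in control and -0.18 in HTT-deleted cultures and a median change of -0.37 with 2 above 0. The pair medians were -1.36, 0.10 and 0.23, and in replicates 2 and 3 the median was 0.16 with 12 of 14 above 0. Gas5 had ratios of 0.77, 0.58 and 0.33 in controls and -0.58, 0.62 and 0.27 in HTT-deleted cultures, a change of -0.45 (standard error 0.30) and of -0.01 in replicates 2 and 3. Snhg8 was at -0.72 (standard error 0.37) and -0.15 (standard error 0.13) without replicate 1. Snhg17 was low on ribosomes in every culture, at -1.87 to -1.50 in controls and -1.47 to -1.33 in HTT-deleted cultures, with a change of 0.23 (standard error 0.16), and 0.33 (standard error 0.14) in replicates 2 and 3, that did not pass.

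Stress and immune lists gave no call. Interferon-stimulated genes (30) had 0.07 with 18 above 0 (pair medians 0.18, 0.08, 0.03), and 0.04 with 17 above 0 in replicates 2 and 3. Of these Oasl1, an oligoadenylate synthetase homologue, had ratios of -0.17 to 0.22 in controls and 0.59 to 0.71 in HTT-deleted cultures, a change of 0.68 (standard error 0.31) and of 0.73 (standard error 0.48) in replicates 2 and 3. Inflammatory and NF-kB genes (29) had -0.06, and 0.04 in replicates 2 and 3. The ubiquitin editor Tnfaip3 was at 0.48 (standard error 0.23) and 0.29, and the cytokine Il6 at -0.64 (standard error 0.41) and -0.56. The p53 targets (26) had 0.00 and 0.01, with Trp53inp1 at 0.34 (standard error 0.17) and 0.12. Immediate-early transcription factors (26) had -0.06 and -0.04. NRF2 targets (23) had -0.14 with 6 above 0, and 0.04 with 15 above 0 in replicates 2 and 3. Replication-dependent histones (23 tested) had 0.03 and 0.01, with Hist2h3c2 at -1.07 (standard error 0.40) and at -0.52 (standard error 0.28) in replicates 2 and 3, and their near-identical copies make single members uncertain.

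Lists closer to huntingtin's known partners gave no call either. The 37 genes of microtubule motors, dynactin and huntingtin partners had a median change of 0.05 with 23 above 0, and of -0.03 with 13 above 0 in replicates 2 and 3. The kinesin Kif1a had ratios of -0.83, -0.67 and -0.62 in controls and 0.57, -0.69 and -0.66 in HTT-deleted cultures, a change of 0.44 (standard error 0.32) and of -0.03 in replicates 2 and 3. The myosin Myo6 was even, at -0.97 to -0.78 in controls and -0.71 to -0.60 in HTT-deleted cultures, a change of 0.20 (standard error 0.13) and of 0.13 in replicates 2 and 3. The 43 lysosome and autophagy genes had -0.10, and 0.02 in replicates 2 and 3, with the autophagy initiation factor Atg13 at 0.21 (standard error 0.14) and 0.13. Cholesterol and fatty acid synthesis (30) had 0.07 and -0.01, and glycolysis and hypoxia (29) had -0.04 and 0.02. The 33 iron-responsive, polyamine and selenoprotein genes had -0.14 with 12 above 0, and 0.06 with 21 above 0 in replicates 2 and 3. In the last list the ferritin gene Fth1 was at -0.43 (standard error 0.31) and at 0.04 (standard error 0.13) in replicates 2 and 3.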

How the data were processed

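Raw read counts for each Ensembl gene, as deposited, were taken for 12 libraries. Per the submitters' processing notes, reads were aligned with STAR 2.7.2b to GRCm38 and counted with HTSeq 0.11.1. Which annotation release and strand setting the counting used is not stated in the labels or headers. Of 55487 genes per library 55394 matched a symbol in GENCODE M21. The 5 summary entries of each library that name no gene were left out of library sizes and tests. Reads in no feature were 6.94 to 7.73% in total and 2.64 to 3.30% in ribosome-associated RNA. Gene counts summed to 16789356 to 30571501 per library. The authors' deposited table of their own comparison per fraction holds log2 values (fold changes and mean levels), a score (the likelihood ratio) and p-values with a false discovery rate, of which the log2 fold changes and false discovery rates are quoted. No libraries of a group agreed within sampling noise (chi-square per degree of freedom 153 and 162 for pairs with total HTT-deleted replicate 1, 32.1 to 71.8 for the others).

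Genes were filtered with filterByExpr over the 4 groups and scaled by TMM in edgeR 4.0.16 under R 4.3.3. The main fit was the robust quasi-likelihood test with a term for each of the 6 cultures, the fraction in each condition, and their difference as the result. It has 4 residual degrees of freedom. The standard error is the log2 value divided by the square root of F. Log2 CPM per library used a prior count of 2. The culture block rests on the labels, by which both libraries of a culture come from the same suspension, and the pairs deviated together (correlations 0.403 to 0.841). Same-numbered control and HTT-deleted libraries also deviated together in level (0.266 to 0.796); the culture term takes up such levels, and a fit with the number in each fraction is an alternative. p-values measure the spread between cultures or passages. The script was tested on simulated data. Alternatives were DESeq2 1.42.0, limma 3.58.1 voom with and without sample weights, RLE and upper quartile scaling, other filters, no block, a block by replicate number, a transcript length offset, leaving out each culture, and replicates 2 and 3 only.

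Named genes were Htt, then the 10 per direction called, or, as none was called, of smallest p, with at least 1 CPM in a group, no provisional symbol, no pseudogene and the same sign in all 3 pairs, plus list members of smallest p. The comparison, the lists and the rule were chosen with earlier results of these data known, as was the fit of replicates 2 and 3 only. Promoter and other sequences were not used here.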

Additional observations from a re-analysis of the deposited data

How the results depend on the processing

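The interaction was called for 0 genes in each alternative run. These were the other tools, scalings and filters, the length offset, the fits that leave out 1 culture (0 to 0) and replicates 2 and 3 only. With no replicate block the interaction was called for 0 genes and the ratio for 1646 genes in control and 1135 in HTT-deleted cultures. A block by replicate number in each fraction, which pairs the control and HTT-deleted cultures, gave 0 interaction calls with 73 genes at an unadjusted p under 0.05. It gives no separate ratio calls. The ratio counts of 2879 and 1774 became 8103 and 8159 under voom with sample weights, and 3520 in HTT-deleted cultures with a length offset. They were 7762 and 8079 in replicates 2 and 3, and 7160 and 7072 there with the length offset, a combination chosen after seeing the data. Leaving out 1 culture gave 315 to 8436 calls in control cultures, the highest without HTT-deleted replicate 1 and the lowest without control replicate 1. In HTT-deleted cultures it gave 288 to 6729, the highest again without HTT-deleted replicate 1 (without control replicate 1, 2 or 3 it gave 898, 673 and 748, and without HTT-deleted replicate 2 or 3 it gave 445 and 288). For control cultures it gave 448 and 344 without control replicate 2 or 3. Leaving out a control or another HTT-deleted culture also leaves fewer cultures to estimate the spread.

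Of 666 list medians 39 moved by more than the SD of that list's 3 pair medians. That SD includes the outlying pair 1, and a change of sign was not counted. The ribosomal protein median stayed within it, at -0.42 with all libraries and 0.05 in replicates 2 and 3. Of 1209 gene values under an alternative 1173 kept their sign and 36 reversed. Most of these genes were picked by small p or by the same sign in all 3 pairs, so kept signs are no support for a change. The gene values that reversed were not past the test in any fit, and the cause was not tested. Htt was at -0.0878 under voom with sample weights, -0.0473 with the length offset, -0.167 in replicates 2 and 3 and -0.0503 there with the offset. In replicates 2 and 3 Atf4 was at 0.0303, Col11a1 at -0.0732, Fbn1 at -0.133, Srrm2 at -0.163, Fth1 at 0.0385, Kif1a at -0.0313 and Kmt2e at -0.338. With the offset in those replicates Col11a1 was at -0.00575, Fbn1 at -0.0311, Srrm2 at -0.0837 and Kmt2e at -0.274. Under sample weights Fbn1 was at -0.0268 and Kmt2e at -0.19, and with the length offset over all libraries Myo6 was at -0.0229 and Kmt2e at -0.157. Without the block Hist1h2bf was at 0.0271, Zfp593 at -0.0655 and Lage3 at -0.022. Leaving out 1 culture gave ranges of -0.0693 to 0.522 for Htt, -4.35 to 1.41 for Hist1h2bf, -4.17 to 1.66 for Hist1h2bm and -0.00152 to 0.82 for Fbn1. The ranges were -0.291 to 0.528 for Zfp593, -0.137 to 0.288 for Lage3, -0.164 to 0.228 for Kmt2e and -0.232 to 0.00333 for Gatad2b.

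Depth limits genes near 1 CPM, whose intervals are wide. Deletion by Cre and the difference between the vectors cannot be told apart.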
